A study of Homo sapiens with 18 samples.

Results

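The 10 genes described here, CD3D, CD3E, CD3G, CD247, LAT, LEF1, BCL11B, SH2D1A, LCK and ZAP70, mark the T-cell lineage and were followed by 23 of the 47217 array probes. They were chosen as T-cell genes whose presence on arrays labelled T cells was in question, and that presence was read from the detection p-value that accompanies each probe signal. The members were thus selected on their detection in each line, so their levels in the lines are a description with no test, and only responses to treatment within a line, and differences between those responses, were tested. The series holds 18 Illumina HumanHT-12 v4 arrays in 6 groups of 3. Jurkat cells, derived from a T-cell leukemia, and THP1 cells, of monocytic leukemia origin, were each left untreated or exposed for 24 h at 50 µg/ml to graphene oxide (GO) or to its amino-functionalized form (GONH2). The labels name no transgene and no further agent, and each line stands for 1 leukemia rather than for blood T cells or monocytes. Groups are called by their labels throughout, "T cells" for Jurkat and "monocytes" for THP1.

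The T-cell receptor recognizes antigen through its variable chains and signals through the invariant CD3 chains and the CD247 (zeta) chain, whose cytoplasmic tails are phosphorylated by the kinase LCK. The kinase ZAP70 then binds these tails and phosphorylates the adaptor LAT, on which the downstream signalling complex is built. SH2D1A (SAP) is an adaptor of receptors of the SLAM family. LEF1 and BCL11B are transcription factors that establish and hold the T-cell program in the thymus. CD3E, CD3D and CD3G encode the 3 CD3 chains and are direct neighbors on chromosome 11 in the RefSeq annotation.

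The promoters of 3 members are given because these genes were all detected on untreated T-cell arrays and then behaved differently after GO: CD3D fell, while LEF1 and BCL11B did not pass the test. Each window runs 5′ to 3′ on the minus strand of GRCh38.p14 (RefSeq), from 250 bases before to 50 bases after the annotated start. Capitals mark TGTGGT, the core recognized by RUNX factors, and TGAGTCA, a site of the AP-1 family, both searched on both strands.
CD3D, chr11:118342656-118342955: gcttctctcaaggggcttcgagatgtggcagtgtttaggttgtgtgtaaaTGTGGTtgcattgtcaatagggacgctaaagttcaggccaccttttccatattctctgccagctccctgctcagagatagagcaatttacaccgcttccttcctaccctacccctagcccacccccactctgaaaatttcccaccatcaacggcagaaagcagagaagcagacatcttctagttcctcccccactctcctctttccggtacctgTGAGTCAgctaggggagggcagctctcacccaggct
LEF1, chr4:108166252-108166551: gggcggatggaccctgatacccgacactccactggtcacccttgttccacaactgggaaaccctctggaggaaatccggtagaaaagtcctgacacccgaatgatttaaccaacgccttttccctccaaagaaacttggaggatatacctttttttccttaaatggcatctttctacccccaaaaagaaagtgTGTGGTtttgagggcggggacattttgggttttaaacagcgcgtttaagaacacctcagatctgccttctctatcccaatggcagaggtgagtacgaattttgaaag
BCL11B, chr14:99272148-99272447: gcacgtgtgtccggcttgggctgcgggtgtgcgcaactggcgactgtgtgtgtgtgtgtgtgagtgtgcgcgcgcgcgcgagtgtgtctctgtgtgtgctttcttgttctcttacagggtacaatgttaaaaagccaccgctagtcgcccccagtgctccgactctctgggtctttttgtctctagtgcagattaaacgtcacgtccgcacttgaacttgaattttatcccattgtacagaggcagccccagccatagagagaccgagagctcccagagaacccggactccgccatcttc
The CD3D window held 1 TGTGGT and 1 TGAGTCA, the LEF1 window 1 TGTGGT and 0 TGAGTCA, and the BCL11B window 0 of either. Across 35116 promoter windows of the same length, 13.1% held TGTGGT and 4.95% held TGAGTCA. For 8 members 12 windows were at hand, since some genes have more than 1. Of these 12, 4 held TGTGGT (CD3D, LAT, LCK and LEF1) and 3 held TGAGTCA (CD3D, LAT and ZAP70). A match describes the letters of the window and no occupancy.

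The labels of the arrays were checked before the genes were compared. Group means of the arrays were set beside the treated means of a supplementary table for GO in monocytes, of which 1996 genes were at hand. They matched within 0.005 on the log2 scale for 100% of genes on arrays labelled GONH2 and for 0% on arrays labelled GO, whereas for T cells the arrays labelled GO matched for 100%. Monocyte groups are therefore written as "labelled GO" and "labelled GONH2". Between 15761 and 17809 probes were detected per array (detection p under 0.01), median unnormalized signals lay between 102.6 and 150.2, and arrays of 1 group correlated at 0.9868 or more. Untreated T cells and untreated monocytes had group means that correlated at 0.9769 across 19455 probes, which are not independent replicates. The myeloid genes ELANE, CEBPA and SPI1 were detected on all 3 untreated T-cell arrays, at mean log2 intensities of 13.63, 12.32 and 10.06, beside 14.52, 12.48 and 10.17 on untreated monocyte arrays. Of 25 myeloid markers on the array, 19 were detected on all 3 untreated T-cell arrays and 22 on all 3 untreated monocyte arrays. Of the CD3 and zeta chains, CD3D and CD247 were detected on all 3 untreated T-cell arrays, and CD3E and CD3G on none. These arrays thus held some T-cell transcripts beside a broad set of myeloid transcripts. The identity of the cells was not tested.

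In untreated T cells, 6 of the 10 genes had a probe detected on all 3 arrays: CD3D, CD247, LAT, LEF1, BCL11B and SH2D1A. Counted by probe, 10 of the 23 member probes (43.5%) were detected on all 3 of these arrays, beside 33.1% of all 47217 probes. LCK was detected on 2 of the 3, and CD3E, CD3G and ZAP70 were detected on none. Close to the limit of 0.01, the CD247 probe ILMN_1676924 had detection p-values of 0.0013, 0.0039 and 0 in untreated T cells, just inside, and the LCK probe ILMN_1699991 had 0.0013, 0.0117 and 0.0052, with 1 array just outside. After GO, 4 genes had a probe detected on all 3 T-cell arrays, namely LAT, LEF1, BCL11B and SH2D1A, by 6 of the 23 probes (26.1%, beside 32.2% of all probes). LCK was then detected on each array by 1 or the other of its probes, but by no probe on all 3. After GONH2 the genes were the same 6 as in untreated T cells, by 10 of 23 probes (32.2% of all probes). In untreated monocytes only LAT had a probe detected on all 3 arrays, by 1 of 23 probes (31.8% of all probes), and LAT and SH2D1A had one on the 3 arrays labelled GO (3 of 23 probes, beside 32.4%) and on the 3 labelled GONH2 (3 of 23, beside 32.3%). Over all 9 T-cell arrays and all 9 monocyte arrays, BCL11B was the only member present on every array of the first kind and on no array of the second, a pattern shared by 41 probes in all (0.0868%). CD3D, CD247 and LCK were likewise detected on no monocyte array, and CD3E and CD3G were detected on no array of either line. LAT, LEF1, BCL11B and SH2D1A were detected on all 9 T-cell arrays, by the same 6 of 23 probes as after GO (26.1%), beside 29.8% of all probes. In all, 8 of the 23 probes were detected on no array, beside 50.1% of all 47217 probes.

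**Figure D1:**
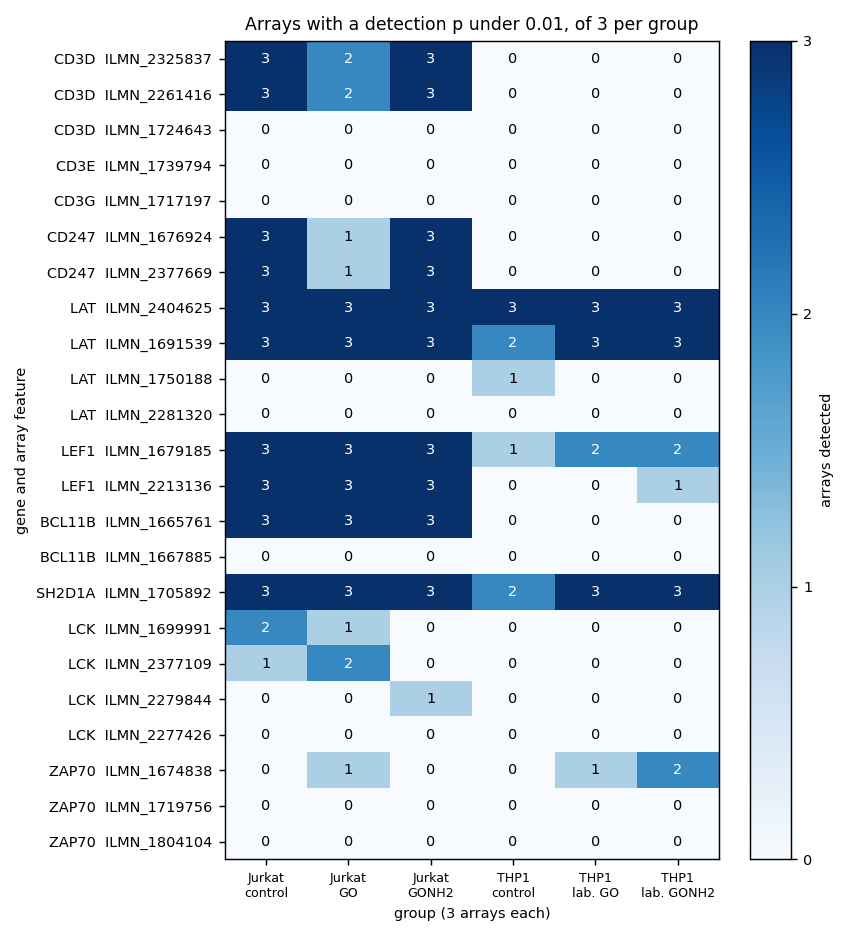
Number of arrays, of 3 per group, on which each of the 23 probes (rows) had a detection p under 0.01, for the 6 groups (columns). CD3D, CD247 and BCL11B are detected on 3 of 3 untreated T-cell arrays and on 0 monocyte arrays, while CD3E and CD3G stand at 0 in every group.

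CD3D, the delta chain of the CD3 complex, was detected on all 3 untreated T-cell arrays, on 2 of 3 after GO and on all 3 after GONH2. Its probe ILMN_2325837 gave unnormalized intensities of 319.6, 332.2 and 415.9 in untreated T cells, 133.1, 105.2 and 147.2 after GO, and 250.6, 278.8 and 342.0 after GONH2. On the 9 monocyte arrays the same probe lay between 95.77 and 129.5 and was detected on none. After background correction, quantile normalization and log2 transformation, which all levels below carry, the untreated T-cell arrays read 7.80, 7.63 and 8.15 (7.86 ± 0.27, SD, n = 3). The monocyte group means were 4.39 (control), 4.40 (labelled GO) and 4.35 (labelled GONH2). Since these are below detection, CD3D in untreated T cells was at least 5.59-fold above untreated monocytes by this probe and at least 4.42-fold by ILMN_2261416 (7.52 ± 0.18), the bound being set by the lowest detected signal on each monocyte array. The remaining CD3D probe, ILMN_1724643, was detected on no array.

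CD3E and CD3G, the epsilon and gamma chains, have 1 probe each here, and neither reached detection in either line. The CD3E probe read 4.98, 4.69 and 4.79 in untreated T cells and 4.34, 4.37 and 4.54 in untreated monocytes. The CD3G probe read 4.56, 4.81 and 4.74 against 4.62, 4.64 and 4.39, and these groups overlapped. Such values give no fold, and they limit what the array can say to signals not above background. CD247, the zeta chain, was just above the limit, at 5.63, 5.39 and 5.99 by ILMN_1676924 and at 5.70, 5.55 and 6.01 by ILMN_2377669 in untreated T cells. It was at least 1.23-fold and at least 1.30-fold above untreated monocytes, where it was detected on 0 of 3 arrays.

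Of the signalling members, LAT and SH2D1A were detected in both lines, LAT on all 9 monocyte arrays. The LAT probe ILMN_2404625 read 7.35, 7.65 and 7.29 in untreated T cells and 6.65, 6.77 and 6.86 in untreated monocytes, a difference of 0.67 with no overlap. The second detected probe, ILMN_1691539, differed by 0.69, from 6.62 ± 0.09 to 5.92 ± 0.48. SH2D1A read 7.00, 6.86 and 7.16 in untreated T cells and 5.65, 5.38 and 5.01 in untreated monocytes, where it was detected on 2 of 3 arrays. The kinases were dim: LCK (ILMN_1699991) stood at 5.45 ± 0.16 in untreated T cells and at 4.71 ± 0.05 in untreated monocytes, and ZAP70 (ILMN_1674838) at 4.76 ± 0.14 and 5.01 ± 0.14, undetected in both.

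The transcription factors differed between the lines in the same direction as CD3D. LEF1 probe ILMN_2213136 read 7.82, 7.72 and 7.92 in untreated T cells and was undetected in untreated monocytes, at least 5.44-fold lower. LEF1 probe ILMN_1679185 read 7.62, 7.62 and 7.86 against 5.81, 5.07 and 5.18, and was detected on 1 of the 3 untreated monocyte arrays. BCL11B by ILMN_1665761 read 6.14, 5.94 and 6.28 in untreated T cells and 4.48, 4.43 and 4.55 in untreated monocytes, at least 1.67-fold apart. Its other probe, ILMN_1667885, was detected on no array.

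**Figure D2:**
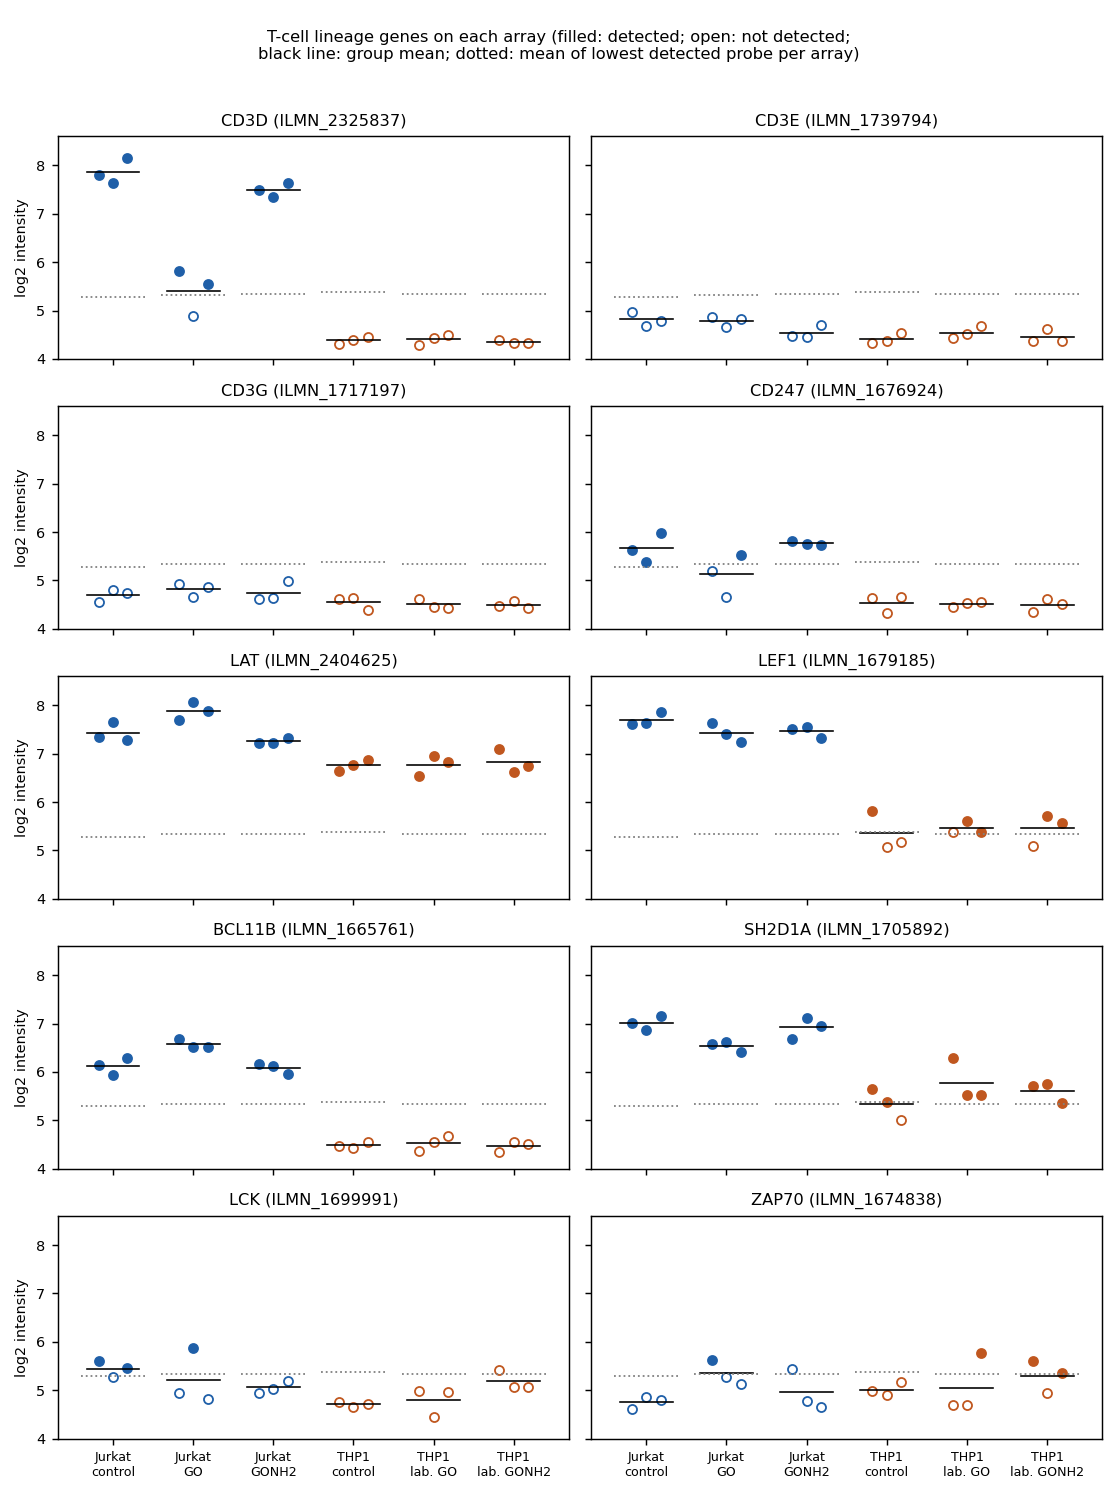
Log2 intensity of each member on each of the 18 arrays, with 1 probe per gene, points filled where detected, black lines at group means and dotted lines at the mean of the lowest detected signal per array. The 3 CD3D values after GO in T cells (4.88 to 5.81) lie below all untreated T-cell values (7.63 to 8.15), and all THP1 values of CD3D lie below the dotted lines.

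The comparison of GO with untreated T cells asks how the material changed these cells. CD3D fell after GO, and no other member passed the test. With ILMN_2325837 the 3 arrays after GO read 5.81, 4.88 and 5.55, all below the 3 untreated arrays, and the probe was still detected on 2 of 3. The log2 fold change was -2.45 (SE 0.24, adjusted p = 1.72e-04, limma over 19455 probes), a 5.45-fold lower signal. ILMN_2261416 fell from 7.44, 7.40 and 7.72 to 5.65, 5.34 and 5.47, by a log2 fold change of -2.03 (SE 0.13, adjusted p = 2.58e-05), again with no overlap. Without background correction the change of ILMN_2325837 was smaller, -1.22, and still called. Only 0.761% of all tested probes had a change as low as that of ILMN_2325837 or lower. In bulk RNA such as this, fewer cells expressing a gene and less RNA per cell cannot be told apart.

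Of the 8 members with a tested probe, 1 was called lower and 0 higher after GO, where a call required p under 0.001 and an adjusted p under 0.05. Over all tested probes 25.1% were called, 12.8% higher and 12.3% lower, so that 1 of 8 members is no more than the background share. The 8 members passed the filter by being detected on at least 3 of 18 arrays, and CD3E and CD3G did not pass it. The median change over the 8 was -0.26, beside 0.06 over all tested probes. At an unadjusted p under 0.05, LAT, BCL11B and ZAP70 were higher, and SH2D1A was lower beside CD3D. The same genes were those whose 3 GO values did not overlap the 3 untreated values, 3 of 8 higher and 2 of 8 lower, beside 31.2% and 25.4% of all tested probes.

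CD247 was next in size among the lower members. Its probe ILMN_2377669 read 5.70, 5.55 and 6.01 in untreated T cells and 5.01, 5.09 and 5.41 after GO, with no overlap, a log2 fold change of -0.58 (SE 0.16, adjusted p = 0.0176) that missed the p threshold. The other CD247 probe gave -0.54 (SE 0.24, adjusted p = 0.099), with groups that overlapped, and each probe was detected on 1 of 3 arrays after GO. SH2D1A read 6.57, 6.62 and 6.40 after GO, below its 3 untreated values, with a log2 fold change of -0.47 (SE 0.12, adjusted p = 0.0116). Neither change was called.

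LAT and BCL11B lay on the other side. LAT by ILMN_2404625 read 7.70, 8.07 and 7.87 after GO, above all untreated values, with a log2 fold change of 0.45 (SE 0.14, adjusted p = 0.0331). BCL11B read 6.68, 6.51 and 6.52, also above all untreated values (0.45, SE 0.12, adjusted p = 0.0165). ZAP70 read 5.63, 5.27 and 5.14 and was detected on 1 of the 3 arrays (0.59, SE 0.15, adjusted p = 0.0132). These changes, too, did not reach the p threshold. LEF1 gave -0.28 (SE 0.13) and -0.31 (SE 0.16) by its probes, and LCK gave -0.23 (SE 0.27) by ILMN_1699991, whose 3 arrays after GO spread from 4.82 to 5.88.

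The difference between CD3D and each other member was then taken within each array, so that a factor common to the whole array cancels. From untreated to GO, CD3D changed by -1.90 relative to CD247, by -1.97 relative to SH2D1A, by -2.17 relative to LEF1 and by -2.22 relative to LCK. It changed by -2.89 relative to BCL11B, by -2.90 relative to LAT and by -3.03 relative to ZAP70. The 3 GO arrays and the 3 untreated arrays did not overlap in any of these 7 differences. The exact two-sided permutation p was 0.1 for each, the smallest that 3 against 3 arrays can give, and remained 0.1 after adjustment over 14 such comparisons, so the 0.05 level could not be reached.

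**Figure D3:**
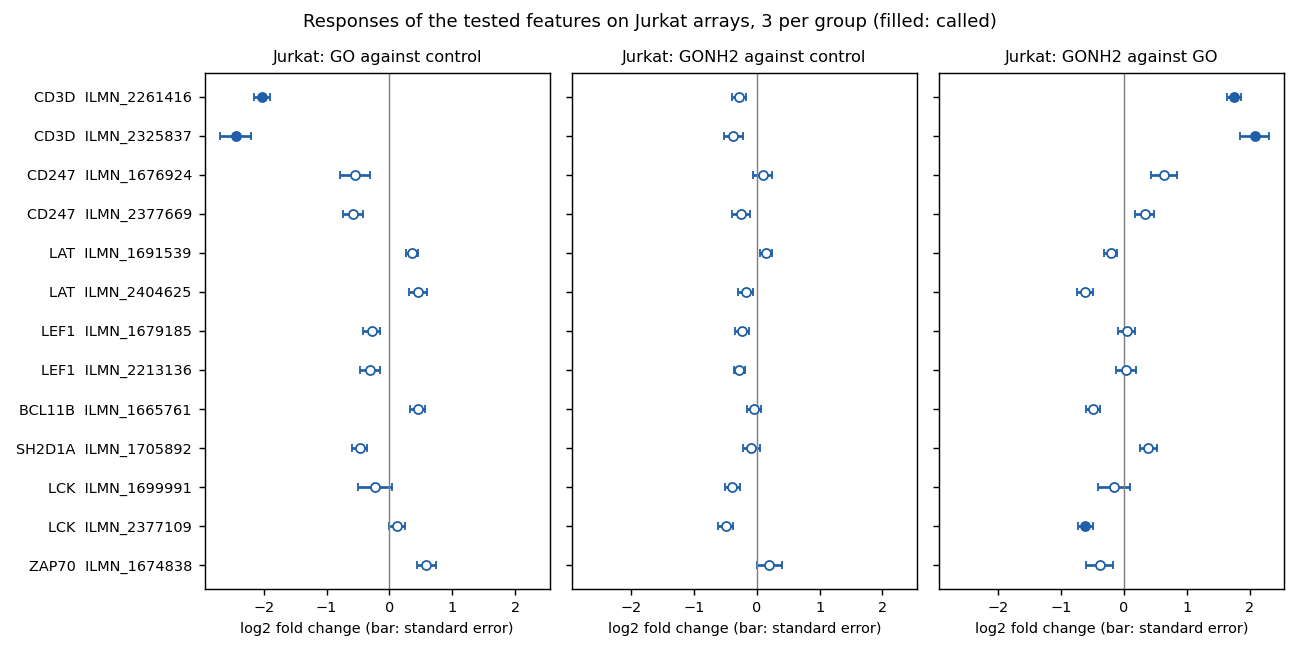
Log2 fold changes of the 13 tested probes in T cells (points; bars, standard error of the limma fit; filled points, called) for GO against control, GONH2 against control and GONH2 against GO, 3 arrays per group. Both CD3D probes stand at -2.45 and -2.03 in the first panel and at 2.08 and 1.75 in the third.

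GONH2 was compared with the same 3 untreated arrays. CD3D read 7.50, 7.34 and 7.63 by ILMN_2325837, a log2 fold change of -0.37 (SE 0.15, adjusted p = 0.248), with the highest GONH2 array level with the lowest untreated array. ILMN_2261416 read 7.23, 7.27 and 7.21 (-0.28, SE 0.11, adjusted p = 0.229), below the untreated values but not called. By limma 0 of 8 members were called after GONH2, where 0.812% of all tested probes were, and at an unadjusted p under 0.05 there were 0 higher and 2 lower, CD3D and LCK. The alternative variance model, limma-trend, also called 0. LCK read 4.95, 5.03 and 5.20 by ILMN_1699991 (-0.39, SE 0.12, adjusted p = 0.147) and 4.76, 4.67 and 4.86 by ILMN_2377109 (-0.50, SE 0.12, adjusted p = 0.0949), and neither probe was detected on a GONH2 array. The median change of the 8 members was -0.13, beside -0.01 over all tested probes.

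Set directly against each other, the treated T cells differed in CD3D. It was higher after GONH2 than after GO by 2.08 (SE 0.22, adjusted p = 1.84e-04) and by 1.75 (SE 0.12, adjusted p = 1.96e-05) on the log2 scale, 4.22-fold and 3.36-fold, with no overlap between the 3 arrays of each group. CD3D was the 1 member of 8 called by its probe with the highest mean, and 24.1% of all tested probes were called, 11.8% as higher after GONH2. LCK by its second probe, ILMN_2377109, was lower after GONH2 (-0.61, SE 0.12, adjusted p = 0.00391), falling from 5.55, 5.33 and 5.26 to the values given above, whereas by ILMN_1699991 the difference was -0.16 (SE 0.26) with overlapping groups. LAT by ILMN_2404625 was just outside, with 7.21, 7.23 and 7.32 after GONH2 (-0.63, SE 0.13, adjusted p = 0.00426). The other tested LAT probe, ILMN_1691539, gave a smaller difference of -0.21 (SE 0.11, adjusted p = 0.138). BCL11B read 6.16, 6.12 and 5.95 (-0.49, SE 0.11, adjusted p = 0.00826) and was not called.

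Across the 9 T-cell arrays, the level of CD3D correlated with that of CD247 at r = 0.82 and with SH2D1A at r = 0.81, and in the opposite sense with LAT at r = -0.88 and BCL11B at r = -0.80. The value was 0.54 for LEF1, -0.02 for LCK and -0.65 for ZAP70. These are descriptions over 9 arrays that share their treatments and their normalization, and the 3 GO arrays lie at 1 end of the CD3D axis.

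In monocytes no member was called. By limma 0 of 8 passed on arrays labelled GO (7.93% of all tested probes), 0 of 8 on arrays labelled GONH2 (19.9%) and 0 of 8 between the labelled treatments (28.0%), and limma-trend called 0 in each as well. At an unadjusted p under 0.05 the counts were 0, 1 and 0, the 1 being LCK on arrays labelled GONH2. That LCK probe, ILMN_1699991, read 4.76, 4.66 and 4.71 in untreated monocytes and 5.42, 5.06 and 5.08 on arrays labelled GONH2 (0.48, SE 0.14, adjusted p = 0.0232), and it was detected on none of them. LAT by ILMN_2404625 stayed between 6.53 and 7.10 over all 9 monocyte arrays. SH2D1A ranged from 5.01 to 6.30, the highest value being on 1 array labelled GO. CD3D, CD247 and BCL11B have no measured level on monocyte arrays, so their responses there compare signals not above background.

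Whether the lines responded differently was tested by an interaction term. For GO, CD3D differed by -2.46 (SE 0.29, adjusted p = 3.08e-05) with ILMN_2325837 and by -2.07 (SE 0.17) with ILMN_2261416, the lower change being that of T cells, and CD3D was the 1 member of 8 called (24.5% of all tested probes, 12.3% in this direction). CD3D was detected on no monocyte array, so a fall could not be seen there. The CD3D term therefore restates the T-cell change and compares no measured monocyte response. When the monocyte labels were exchanged, which was tried only after the label check, the value for ILMN_2325837 was -2.41. With that exchange the calls over all 19455 tested probes went from 4761 to 111 for GO and from 3615 to 1072 for GONH2. For GONH2, LCK differed by -0.86 (SE 0.18, adjusted p = 0.00264), the 1 call of 8 (18.6%, 9.52% in this direction), but the call was lost with the monocyte labels exchanged (-0.48, adjusted p = 0.154). The LCK probe behind this value, ILMN_1699991, was undetected on all arrays of 3 of the 4 groups in that comparison and detected on 2 of 3 untreated T-cell arrays. The other tested LCK probe, ILMN_2377109, gave -0.60 (SE 0.19, adjusted p = 0.0241) and was not called.

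The wider T-cell program was read from lists of genes other than these 10. Of 13 further receptor chains and coreceptors on the array, only CD4 was detected on all 3 untreated T-cell arrays, while CD8A, CD8B, CD5, CD6, CD28, CTLA4, ICOS and CD27, all surface proteins of T cells, and PTCRA, the surrogate alpha chain of thymocytes, were detected on none. Of the same 13, 1 was detected on all 3 untreated monocyte arrays and 10 on none of them. Of 30 genes of receptor signalling, 18 were detected on all 3 untreated arrays of each line. Of 21 transcription factors of the T lineage, 15 were detected on all 3 untreated T-cell arrays and 13 on all 3 untreated monocyte arrays, and GATA3, TOX, FOXP3, TAL1 and LMO1 were not detected in untreated T cells. Of 23 genes known from immature and leukemic T cells, 6 were detected on all 3 untreated T-cell arrays and 5 on all 3 untreated monocyte arrays. Of the 6, CD1A, a lipid-presenting molecule of cortical thymocytes, was detected on no untreated monocyte array. It stood at 5.91 ± 0.08 in untreated T cells, 5.15 ± 0.33 after GO (detected on 1 of 3) and 5.70 ± 0.23 after GONH2. The recombinase gene RAG1 was not detected in untreated T cells.

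**Figure D4:**
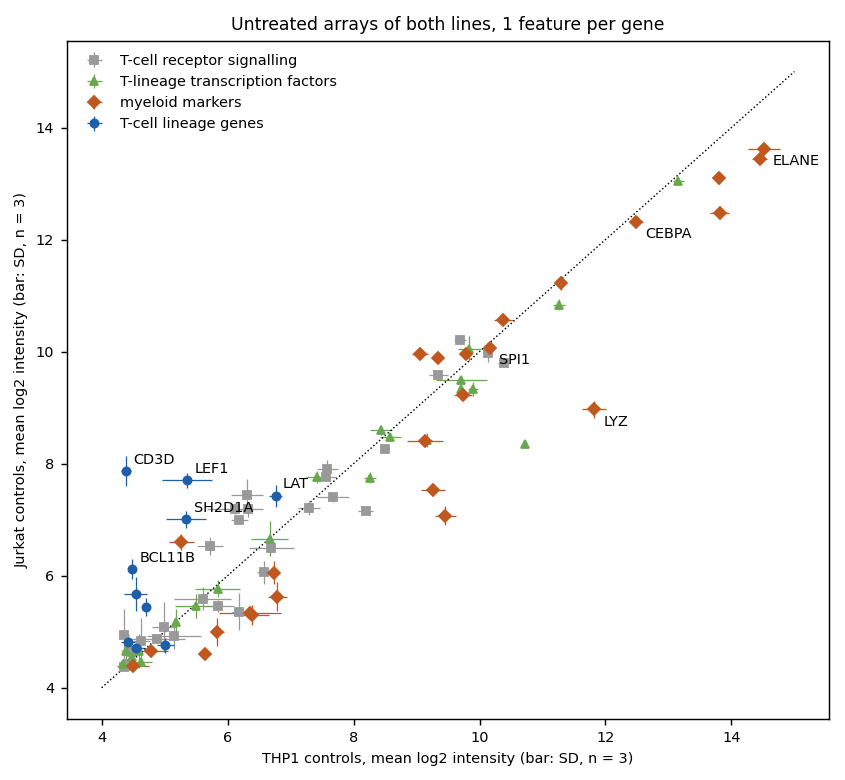
Mean log2 intensity in untreated T cells (vertical) against untreated monocytes (horizontal), 1 probe per gene, bars showing the SD over 3 arrays and the dotted line marking equality. CD3D and LEF1 lie above the line (7.86 and 7.70 in T cells), and ELANE, CEBPA and SPI1 lie high on both axes (13.63, 12.32 and 10.06 in T cells).

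Of 16 transcription factors tested after GO in T cells, 4 were called higher and 0 lower, where 12.8% and 12.3% of all tested probes were, with a list median of 0.43 beside 0.06 over all tested probes. At an unadjusted p under 0.05, 11 were higher and 1, TBX21, was lower. NOTCH1, the receptor that commits progenitors to the T lineage, rose from 7.75 ± 0.10 to 9.11 ± 0.16 (log2 fold change 1.36, SE 0.12). SATB1, a chromatin organizer of thymocytes, rose by 0.88 (SE 0.10), RUNX1, which binds the TGTGGT core, by 0.82 (SE 0.11), and HHEX, a homeobox factor of early progenitors, by 0.52 (SE 0.10). Under median scaling, which shifted the median of all tested probes to -0.13, only NOTCH1 of these 4 kept its call. HHEX lost its call under cyclic loess. TBX21, a factor of type 1 helper T cells, went from 6.66 ± 0.31 to 5.64 ± 0.34 (log2 fold change -1.02, SE 0.21, adjusted p = 0.00534), with no overlap, and missed the p threshold. It was called lower on the authors' normalized values, without background correction, under median scaling, under cyclic loess and by limma-trend. The factors called higher numbered 7 on the authors' values, without background correction and by limma-trend. In these settings 6643 to 6729 of all 19455 tested probes were called in either direction. Of 5 tested receptor chains and coreceptors 1 was called, CD4 (0.78, SE 0.14), and its call was lost under median scaling and under cyclic loess. Of 21 tested signalling genes 1 was called, CSK, the kinase that inactivates LCK, which rose by 1.37 (SE 0.11) and kept its call under each scaling tried. On the authors' normalized values 7 signalling genes were called higher and 1 lower, where 6729 of all tested probes were called.

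Of 8 tested genes of immature and leukemic T cells, 1 rose and 2 fell after GO. SPN, the sialoprotein CD43, rose by 0.78 (SE 0.12), a call lost under median scaling. CXCR4, a chemokine receptor, fell by 0.87 on the log2 scale (SE 0.13), and CD38, an ectoenzyme, fell by 0.49 (SE 0.09) except under median scaling, where its call was lost. After GONH2, limma called 0 genes of these 4 T-cell lists against untreated T cells. At an unadjusted p under 0.05 the signalling genes had 3 higher and 1 lower and the transcription factors 4 higher and 3 lower. By limma-trend, on the authors' values and without background correction, MALT1 and HHEX were called higher and RUNX3 lower. In these settings 876 to 928 of all tested probes were called. Between the treatments, NOTCH1 was lower after GONH2 than after GO by 1.04 (SE 0.15), RUNX1 by 0.97 (SE 0.12), RUNX3 by 0.92 (SE 0.16), SATB1 by 0.91 (SE 0.15) and TCF3 by 0.64 (SE 0.12), which made 5 of 16 factors called lower and 0 higher, where 12.4% and 11.8% of all tested probes were. CSK was lower by 1.52 (SE 0.13), CD4 by 0.93 (SE 0.15), SPN by 0.90 (SE 0.12) and MAL by 0.76 (SE 0.14), and CXCR4 was higher by 0.87 (SE 0.13). Under median scaling only CSK and CXCR4 kept their calls among these genes.

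Markers of other blood lineages moved with GO as well. Of 23 tested myeloid markers 7 were higher (ELANE, PRTN3, AZU1, CSF1R, CSF3R, CSF2RA and CD68) and 5 lower (LYZ, FCGR1A, FCER1G, TYROBP and MNDA) after GO in T cells, beside the same 12.8% and 12.3%. Their summed intensity was 51720 to 54970 on untreated T-cell arrays, 78390 to 85820 after GO and 47290 to 48940 after GONH2, beside 91010 to 97080 on untreated monocyte arrays. The myeloid markers CD36, FCN1 and CLEC7A were not detected in untreated T cells. Of these 3, 2 were detected on no array of either line, and 1 was detected on all 3 untreated monocyte arrays. The summed intensity of the 10 members was 937 to 1084 on untreated T-cell arrays, 774.8 to 836.1 after GO and 863.7 to 876.4 after GONH2. Without CD3D it was 736.7 to 799.2 on untreated arrays, 727.8 to 801.2 after GO, which overlapped, and 677.9 to 708.4 after GONH2. Under median scaling the myeloid counts after GO were 1 higher and 6 lower, where 3714 of all tested probes were called. Of 3 tested B-cell markers, CD79B and IGLL1 were lower after GO, and of 4 tested natural killer and cytotoxic markers 0 were called by limma or limma-trend (unadjusted, 2 were higher and 1 lower at p under 0.05). Median unnormalized signals were 103.5 to 124 on the 3 GO arrays and 129.1 to 138.8 on the 3 untreated arrays. The part of these markers and signals in the CD3D result was not tested.

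The genes with patterns most like those of the members were sought over all 18 arrays, by Pearson correlation with the mean of LAT, LEF1, BCL11B and SH2D1A, the members detected on all 9 T-cell arrays. Among 11122 genes ranked, NQO1, a quinone reductase (r = 0.992), CNR1, a cannabinoid receptor (0.990), ARHGEF3 (0.988) and AIF1L (0.988) were among the highest. These 4 were detected on every array of both lines, and NQO1 stood at 10.83 ± 0.06 in untreated T cells and 8.54 ± 0.27 in untreated monocytes. The 18 arrays come from 2 lines, 9 each, and the members were selected on their detection in each line. LAT, LEF1, BCL11B and SH2D1A were each higher in untreated T cells than in untreated monocytes. These correlations therefore mainly carry the difference between the lines, and likeness within a line was not tested.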

How the data were processed

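Total RNA was hybridized to 18 arrays, 3 per group, which the labels call biological replicates. Nothing at hand names separate cultures, so p-values measure the spread between arrays, and the number of arrays limits the precision. The deposited intensity values are linear probe signals that the authors read with GenomeStudio (V2011.1, with module V1.9.0 for expression), not normalized, beside a deposited detection p-value per probe and array. A second deposited table of intensity values, normalized by the authors in the same software by an algorithm not given in the sources used here, served as an alternative. Signals were corrected with limma 3.58.1 in R 4.3.3 (neqc, offset 16, quantile normalization over 18 arrays, log2). Testing covered the 19455 of 47217 probes that were detected (p under 0.01) on 3 arrays or more. Of all probes 30106 carried 1 gene symbol, 8 several and 17103 none, and 30067 were matched by gene ID. Groups were compared 2 at a time, and responses by an interaction term over 4 groups. Calls needed p under 0.001 and a Benjamini-Hochberg adjusted p under 0.05. A gene stands by its tested probe with the highest mean, and genes of the further lists count as detected on an array where any of their probes is. The fits were tested on simulated data. The columns of the study's own comparisons were not used.

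The 10 members and the 7 further lists were chosen with earlier results of these data known. Named beside the members were up to 4 called genes per list and comparison with the largest change, genes of a list detected on untreated T-cell arrays alone, ELANE, CEBPA, SPI1 and LYZ, and the 5 genes most correlated with the members, of which 1 is not reported here. Undetected genes of the lists, CD79B and IGLL1, the remaining called myeloid markers, RUNX3, TCF3, TBX21, MALT1 and further called genes of GONH2 against GO were named after their values had been seen. As alternatives, the authors' values, uncorrected signals, a larger offset (50), scaling to the median, cyclic loess and normalization within each line were tried. Other filters, a fit of 18 arrays, a replicate block, limma-trend, an adjusted p alone, averaged probes per gene and the removal of each array were tried as well. The exchange of monocyte labels was added after the label check. TRAC, TRBC1 and TCF7 were not analysed here.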

Additional observations from a re-analysis of the deposited data

Results flagged for a closer look

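CD3D was called by the interaction term for GO, at -2.46 on the log2 scale (T cells minus monocytes). It was lower after GO in 3 of 3 T-cell arrays and not detected on any monocyte array. A fall could not be seen on monocyte arrays, so the term restates the T-cell change. LCK was called by the interaction term for GONH2, at -0.86, with lower values in T cells and higher values on monocyte arrays labelled GONH2. Only 2 of the 12 arrays compared had this LCK probe detected. The other tested LCK probe gave -0.60 and was not called.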

How the results depend on the processing

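CD3D kept its call and direction for GO against untreated T cells in all 19 alternatives (-2.64 to -1.22), for GONH2 against GO in all 19 (0.97 to 2.27) and for the GO interaction in all 26 (-2.66 to -1.22), the smallest sizes coming without background correction or on the authors' values. Members called after GO in T cells were 2 in a fit of all 18 arrays (BCL11B added) and 1 with each array left out in turn. At an adjusted p alone they were 5 (LAT, BCL11B, SH2D1A and ZAP70 added). Over all 19455 tested probes, 4890 were called in the main fit, 6026 in the fit of 18 arrays and 9281 at an adjusted p alone. For GONH2 against GO, LAT (ILMN_2404625) made it 2 members on the authors' values, without background correction and with an offset of 50. It was also 2 with no filter and by limma-trend, 3 in a fit of all 18 arrays and 5 at an adjusted p alone. Over all tested probes the calls were 4689 in the main fit, 6179 in the fit of 18 arrays and 9033 at an adjusted p alone. They were 6466 on the authors' values and without background correction, 6046 with an offset of 50 and 6344 by limma-trend. With no filter 4999 of 47217 probes were called. With any 1 array left out there were 1 to 2 members, the 2 being without GO replicate 1, where 3756 of all tested probes were called. At an adjusted p alone, monocyte arrays labelled GONH2 gave 1 member (LCK) and the GO interaction 2, beside 8180 and 8322 of all tested probes. The LCK call of the GONH2 interaction gave way to 0 on the authors' values, without background correction, with an offset of 50, under median scaling, in a fit of all 18 arrays, by limma-trend and with the monocyte labels exchanged, and stood at 0 to 1 with any 1 array left out (0 without THP1 control 2 or 3, Jurkat control 1 or 3, or Jurkat GONH2 1 or 2). The cause was not tested. Directions turned only where no call had been made. For GONH2 against control, the mean of its probes took CD247 to -0.078. With any 1 array left out, the range was -0.13 to 0.038 for BCL11B, -0.043 to 0.26 for CD247, -0.19 to 0.028 for SH2D1A and -0.042 to 0.35 for ZAP70, and for GONH2 against GO it was -0.35 to 0.18 for LCK and -0.053 to 0.15 for LEF1. Same-numbered arrays deviated together with r from -0.07 to 0.16. Such weak values over 3 arrays per group do not settle whether the numbers pair samples. A replicate block left CD3D at -2.45 after GO (adjusted p = 3.72e-04) and moved no count of members, while over all probes it took the calls after GONH2 from 158 to 2. Those 158 were 46 under median scaling, 928 on the authors' values and 2 to 4 with any 1 array left out. Median scaling moved the median of all tested probes after GO from 0.06 to -0.13. The members detected on all 3 untreated T-cell arrays numbered 5 to 7 over 6 alternatives. Most members lay near background, which limits their folds.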
